A study of Homo sapiens with 6 samples.

Results

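Toll-like receptors and their adaptors were followed in MV4-11. This established human line comes from an acute myeloid leukaemia with a KMT2A-AFF1 fusion and a FLT3 internal tandem duplication. Of the 10 genes chosen by symbol (TLR1, TLR2, TLR4, TLR5, TLR6, TLR7, TLR8, TLR9, MYD88 and CD14), 9 had a row among the 23227 genes of the count table. TLR9 had none and was not analysed here. RNA sequencing compared 3 libraries in which ENO1, encoding alpha-enolase of glycolysis, was knocked down and 3 libraries named NC that the labels describe as untreated. The columns of the knockdown libraries all carry the name sh2, so the knockdown rests on 1 hairpin. The letters NC are not spelled out, and whether those cells carried a control hairpin is not given. Both groups have the genotype WT in the labels, which give no treatment time, and no separate cultures are named, so the p-values speak of the spread among the 6 libraries alone, and that spread could be technical.

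Toll-like receptors are membrane proteins that recognise microbial molecules and, in monocytes, switch on inflammatory genes. TLR2 pairs with TLR1 or TLR6 to bind bacterial lipopeptides, and TLR4 binds lipopolysaccharide together with LY96 (MD-2), which receives it from CD14. TLR5 binds flagellin, while TLR7, TLR8 and TLR9 sit in endosomes and bind nucleic acids. On binding, the cytoplasmic TIR domains of all these receptors recruit the adaptor MYD88, which assembles the kinases IRAK4 and IRAK1 and passes the signal through TRAF6 to NF-kB.

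The targeted gene ENO1 had 2225, 2225 and 2070 counts in the knockdown libraries, against 84016, 79566 and 80058 counts in the NC libraries, and was left at 3.13% of the NC level. Library totals ran from 20044602 to 21670135 counts in the knockdown group and from 24778469 to 26373960 counts in the NC group. All 10 markers listed for a myeloid leukaemia line passed the filter, among them CD33 and FLT3, and 7 were higher and 2 lower in the knockdown. By the same edgeR test, 29.4% of all 14635 genes tested were called higher and 30.5% lower, so a call was common. ITGAM (CD11b) and PTPRC (CD45) had log2 fold changes of 1.81 and 1.10, while FCGR1A (CD64) and SPI1, encoding the factor PU.1, were at -0.91 and -0.33, all 4 picked for naming with their values known. The part of these changes in the results below was not tested. Mitochondrially encoded genes took 9.27 to 9.69% of the counts in knockdown libraries and 6.69 to 6.88% in NC libraries. Knockdown replicate 3 and NC replicate 2 stood somewhat apart within their groups. The calls of the 5 Toll-like receptor and adaptor genes below held without these 2 libraries and with mitochondrially encoded genes left out of the scaling.

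The receptor genes split in direction. The lipopeptide receptor subunit TLR2 and the lipopolysaccharide receptor TLR4 were lower in the knockdown cells, whereas the TLR2 partners TLR1 and TLR6 and the adaptor MYD88 were higher. TLR5, TLR7, TLR8 and the co-receptor CD14 had at most 22 reads in any library of either group. Of the 9 genes, 6 passed the filter on low counts, and by edgeR's quasi-likelihood test 3 of these 6 were higher and 2 lower at a Benjamini-Hochberg adjusted p below 0.05. Over all 14635 genes tested, 59.9% were called, 29.4% higher and 30.5% lower, so a call was common in these data, and 5 called of 6 is not read as particular to these genes. Groups did not overlap for 5 of the 6, against 64.3% of all genes tested. In bulk RNA, fewer cells expressing a gene and less RNA per cell cannot be told apart.

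**Figure D1:**
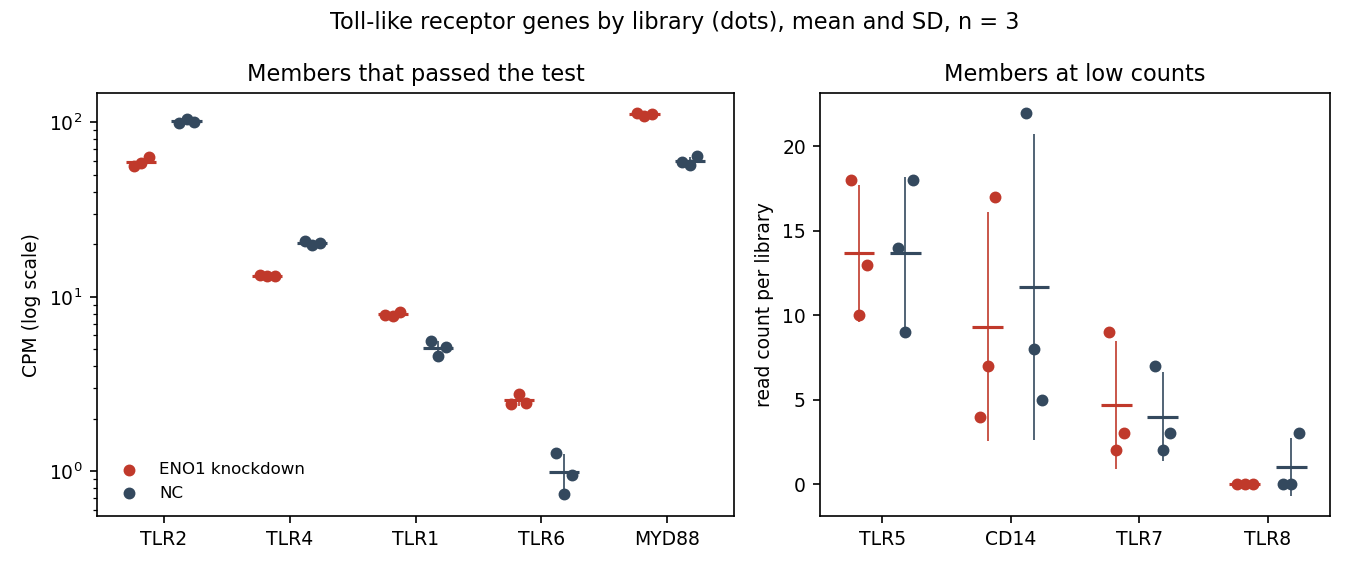
Values in each library (dots) with the mean (bar) and SD (vertical line) of 3 libraries, ENO1 knockdown in red and NC in dark blue. The left panel plots CPM on a log axis for the 5 genes that passed the test, none of which overlap between groups, and the right panel plots read counts for TLR5, CD14, TLR7 and TLR8, which overlap.

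The promoters of the 4 called genes found in the RefSeq promoter table are shown because these genes moved in different directions. Each run is the 250 bases before the RefSeq start on GRCh38.p14, printed 5′ to 3′ on the strand of the gene. Capitals mark matches, on either strand, to the ISRE core GAAA-NN-GAAA bound by interferon regulatory factors, an NF-kB pattern GGG-NNNNN-CC, the STAT pattern TTC-NNN-GAA (GAS) and the core GAGGAA of PU.1, the myeloid factor encoded by SPI1. Where matches overlap they run together. The Sp1 box GGGCGG (in 42.3% of windows) and the TATA box TATAAA (11.1%) were also searched and are not marked, though some Sp1 boxes lie within the capitals of another match. The regions are chr4:153684030-153684279 (plus strand) for TLR2, chr9:117704153-117704402 (plus strand) for TLR4, chr4:38856818-38857067 (minus strand) for TLR6 and chr3:38138411-38138660 (plus strand) for MYD88. In the GENCODE annotation used for the exons, TLR2 starts at 153684070, TLR4 at 117704175 and MYD88 at 38138478. These starts lie inside the windows, so most of each of these windows is within the annotated gene. Only the TLR6 window lies wholly before its gene, so the 4 windows are not alike in this respect. Entries were found for 8 of the 10 symbols, without TLR1 and TLR7.
TLR2: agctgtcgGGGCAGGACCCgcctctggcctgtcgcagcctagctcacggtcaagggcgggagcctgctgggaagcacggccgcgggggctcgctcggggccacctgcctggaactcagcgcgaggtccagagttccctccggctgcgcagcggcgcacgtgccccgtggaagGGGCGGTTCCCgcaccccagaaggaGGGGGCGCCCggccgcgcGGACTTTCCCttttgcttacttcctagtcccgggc
TLR4: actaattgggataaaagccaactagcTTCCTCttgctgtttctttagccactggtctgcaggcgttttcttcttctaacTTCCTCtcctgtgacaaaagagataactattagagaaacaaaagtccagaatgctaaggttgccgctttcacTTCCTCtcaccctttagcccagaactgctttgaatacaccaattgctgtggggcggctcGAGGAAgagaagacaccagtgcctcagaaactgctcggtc
TLR6: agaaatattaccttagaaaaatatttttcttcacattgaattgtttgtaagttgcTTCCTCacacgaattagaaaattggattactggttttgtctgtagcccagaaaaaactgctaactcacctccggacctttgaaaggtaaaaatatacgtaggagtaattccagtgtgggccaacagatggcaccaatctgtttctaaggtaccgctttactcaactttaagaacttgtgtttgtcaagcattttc
MYD88: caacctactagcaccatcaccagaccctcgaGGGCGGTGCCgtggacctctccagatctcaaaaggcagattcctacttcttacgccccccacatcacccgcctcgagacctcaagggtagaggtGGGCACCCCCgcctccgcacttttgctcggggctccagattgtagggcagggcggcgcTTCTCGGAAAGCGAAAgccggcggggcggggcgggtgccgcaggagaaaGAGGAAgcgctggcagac

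The 4 promoters shared some patterns and differed in others. MYD88 was the only one of the 4 with an ISRE core, gaaagcgaaa at positions -61 to -52 from the RefSeq start. This core overlaps a GAS match at -67 to -59 and lies downstream of the GENCODE start of MYD88. An ISRE core was found in 3.07% and a GAS pattern in 6.78% of 27305 promoter windows of the same length. TLR4 held 4 matches to the PU.1 core, TLR6 held 1 at -195 to -190 and MYD88 held 1 at -18 to -13, while 23.4% of all windows had at least 1. The NF-kB pattern stood in the promoters of TLR2, with the match ggactttccc at -35 to -26 among others, and of MYD88, at -219 to -210 and -125 to -116, as it did in 53.7% of all windows. These matches describe the letters in the windows and are no evidence of binding.

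TLR2 had the highest level per exon length among the 5 surface receptors listed (TLR1, TLR2, TLR4, TLR5 and TLR6). Its values were 56.3, 58.5 and 63.2 CPM (read counts scaled by TMM-adjusted library size) in the knockdown libraries, against 99.6, 104.1 and 101.2 CPM in the NC libraries. The 3 knockdown libraries all lay below the 3 NC libraries. TLR2 averaged 59.4 ± 3.54 CPM in knockdown cells and 101.6 ± 2.27 CPM in NC cells (SD, n = 3 each), which left 58.4% of the NC level. Its log2 fold change was -0.78 and the standard error, an approximation, 0.05 (edgeR adjusted p = 3.16e-14). A size larger than this was found for 15.8% of the genes tested.

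TLR4, which signals for lipopolysaccharide, was also lower in every knockdown library. It had 13.2, 13.1 and 13.1 CPM in the knockdown libraries and 20.9, 19.9 and 20.2 CPM in the NC libraries, with no overlap. The means were 13.1 ± 0.0876 CPM in knockdown cells and 20.4 ± 0.538 CPM in NC cells (SD, n = 3 each). The log2 fold change was -0.63 with a standard error of 0.08 (edgeR adjusted p = 9.07e-08), or 64.6% of the NC level. In GENCODE release 29 another gene model, AL160272.2, shares 558 exon bases with TLR4, which is 4.20% of the TLR4 exons.

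TLR1 and TLR6, the alternative partners of TLR2, both rose. TLR1 had 168, 172 and 166 counts in the knockdown libraries and 144, 111 and 126 counts in the NC libraries. Scaled to library size these were 7.81, 7.80 and 8.16 CPM in the knockdown and 5.55, 4.55 and 5.17 CPM in NC, so the groups did not overlap. The log2 fold change of TLR1 was 0.64 with a standard error of 0.12 (edgeR adjusted p = 7.39e-05). TLR6 had 52, 61 and 50 counts in the knockdown libraries and 33, 18 and 23 counts in the NC libraries. Its mean was 2.55 ± 0.192 CPM in knockdown cells and 0.985 ± 0.270 CPM in NC cells (SD, n = 3 each). At 2.57-fold, a log2 fold change of 1.36 with a standard error of 0.25 (edgeR adjusted p = 3.95e-05), TLR6 had the largest estimate among the tested members, and 5.53% of all genes tested had a larger size. Its 95% interval of 0.84 to 1.88 is wide and overlaps those of TLR1 (0.38 to 0.89) and MYD88 (0.80 to 0.99).

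TLR1 and TLR6 are neighbours on chromosome 4, transcribed in the same direction, and their coding sequences are closely related. In GENCODE release 29 TLR1 spans 38790677 to 38856817 and TLR6 spans 38823715 to 38856817 on GRCh38, both on the minus strand. The long span of TLR1 comes from 1 of its 10 transcripts, which starts at the TLR6 start and shares a 57-base exon with TLR6. Of the 50-base stretches of TLR1 transcripts, 5.33% also occurred in other genes, all of these matches being to TLR6, and 5.07% of TLR6 stretches were shared. The read counter is not given, so how such reads were assigned is unknown. Counted as 1 gene, TLR1 and TLR6 together had a log2 fold change of 0.78 with a standard error of 0.11 (edgeR adjusted p = 1.21e-06). TLR10, the third gene of this cluster, had 4, 18 and 9 counts in the knockdown libraries and 0, 3 and 2 counts in the NC libraries. It did not pass the filter.

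**Figure D2:**
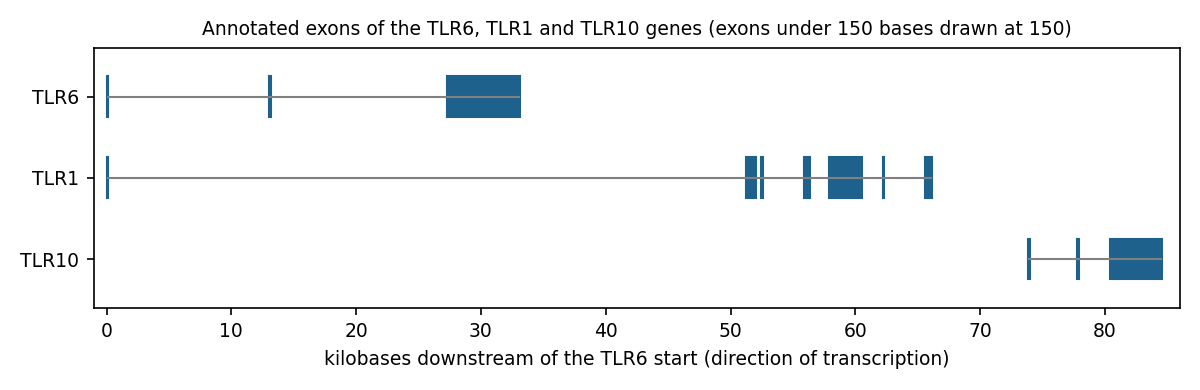
Exons annotated in GENCODE release 29 for TLR6, TLR1 and TLR10, drawn against the distance in kilobases from the TLR6 start in the direction of transcription. TLR1 and TLR6 share the 57-base exon at the left, while their other exons lie apart.

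MYD88, the adaptor shared by these receptors, rose in every knockdown library. It had 113.5, 109.1 and 112.0 CPM in the knockdown libraries and 59.3, 56.9 and 63.8 CPM in the NC libraries. The knockdown libraries all lay above the NC libraries, with means of 111.5 ± 2.20 CPM in knockdown cells and 60.0 ± 3.51 CPM in NC cells (SD, n = 3 each). This was a 1.86-fold difference, a log2 fold change of 0.89 with a standard error of 0.04 (edgeR adjusted p = 8.78e-16). A larger size was found for 12.7% of all genes tested.

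The flagellin receptor TLR5 had 18, 10 and 13 counts in the knockdown libraries and 14, 9 and 18 counts in the NC libraries, 41 counts in each group. It passed the filter, but its groups overlapped and it had no call (log2 fold change 0.22, 95% interval -0.62 to 1.07, edgeR adjusted p = 0.659). The interval includes both a lower level and a 2-fold rise, and without knockdown replicate 1 the estimate was -0.015. No difference was detectable for TLR5 at this depth.

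CD14, which is abundant on mature monocytes, had few reads in every library. It had 4, 7 and 17 counts in the knockdown libraries and 22, 8 and 5 counts in the NC libraries, so libraries of the same group differed more than the groups. The sums were 28 counts in knockdown cells (95% exact Poisson interval 18.6 to 40.5) and 35 counts in NC cells (24.4 to 48.7), and these intervals cover counting error only. CD14 did not pass the filter, and no difference in its CPM was detectable (exact permutation test, two-sided p = 0.7, smallest possible 0.1).

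The endosomal receptors were at or near 0. TLR7 had 9, 2 and 3 counts in the knockdown libraries and 7, 2 and 3 counts in the NC libraries, with sums of 14 (95% exact Poisson interval 7.65 to 23.5) and 12 (6.20 to 21.0). TLR8 had no count in the knockdown libraries and 0, 0 and 3 counts in the NC libraries. A count of 0 allows up to 3 counts per library, which is 0.116 to 0.148 CPM in these libraries, so no fold is given for TLR8. Neither gene passed the filter, and for both the groups overlapped (exact permutation test, two-sided p = 0.6 for TLR7 and 1 for TLR8).

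**Figure D3:**
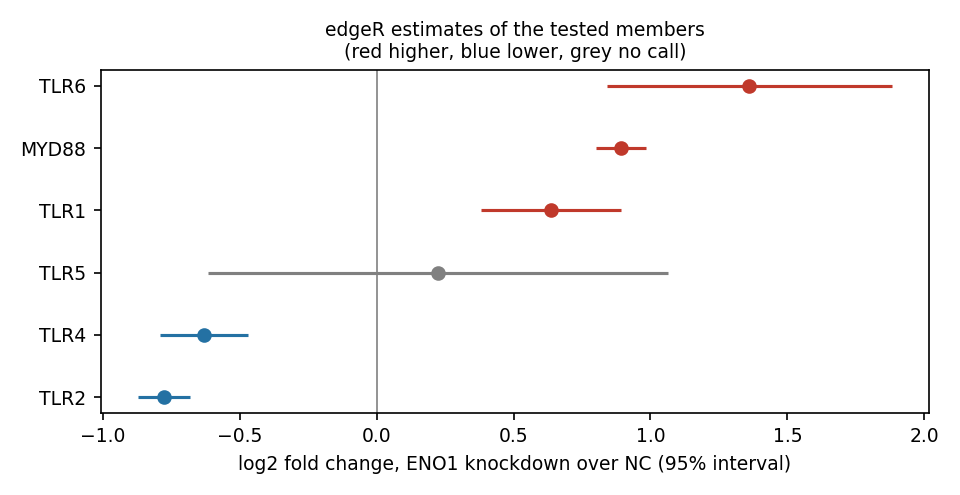
Log2 fold change of ENO1 knockdown over NC with its 95% interval for the 6 genes that passed the filter, from edgeR. TLR6, MYD88 and TLR1 (red) lie above 0, TLR4 and TLR2 (blue) below 0, and the interval of TLR5 (grey) spans 0.

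To set levels of different genes side by side, CPM were divided by exon length (RPKM, per kilobase of all annotated exons). In the knockdown cells the order was MYD88 at 28.0 ± 0.551 RPKM, TLR2 at 11.4 ± 0.678, TLR1 at 1.75 ± 0.0454, TLR4 at 0.991 ± 0.00660 and TLR6 at 0.422 ± 0.0318 (SD, n = 3). CD14, TLR5 and TLR7 followed at 0.237, 0.0828 and 0.0420 RPKM, and TLR8 was at 0. In the NC cells TLR2 came first at 19.5 ± 0.436 RPKM, ahead of MYD88 at 15.1 ± 0.879, TLR4 at 1.53 ± 0.0405 and TLR1 at 1.12 ± 0.111 (SD, n = 3). CD14 at 0.244 and TLR6 at 0.163 RPKM were next, and TLR5, TLR7 and TLR8 came last at 0.0707, 0.0304 and 0.00943 RPKM.

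MYD88 and TLR2 thus stood in opposite order in the 2 groups, and their libraries did not overlap in either. Neighbours whose libraries overlapped were TLR6 with CD14, CD14 with TLR5 and TLR5 with TLR7 in the knockdown cells. In the NC cells they were CD14 with TLR6, TLR5 with TLR7 and TLR7 with TLR8. The place of TLR1 beside TLR4 depends on the length used. Per kilobase of the longest transcript, TLR1 was above TLR4 in both groups, with 2.78 ± 0.0723 against 1.02 ± 0.00681 RPKM in knockdown cells and 1.79 ± 0.177 against 1.58 ± 0.0418 RPKM in NC cells (SD, n = 3), where the libraries overlapped. Averaged over all 6 libraries, MYD88 was above 84.6% and TLR2 above 78.3% of the genes tested in RPKM, whereas TLR1 and TLR4 were above 28.7% and 26.7%.

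Ratios within a library do not depend on how libraries are scaled. Reads per kilobase of TLR2 over those of TLR1 had log2 values of 2.65, 2.70 and 2.75 in the knockdown libraries, against 3.96, 4.31 and 4.09 in the NC libraries. TLR2 exceeded TLR1 on average 6.50-fold in knockdown cells and 17.4-fold in NC cells, and the groups did not overlap. These folds depend on the exon length used, while the difference between the groups does not. Per kilobase of the longest transcript, TLR2 and TLR1 averaged 14.1 and 2.78 RPKM in knockdown cells and 24.2 and 1.79 RPKM in NC cells. The log2 ratio of TLR1 over TLR6 was 2.10, 1.91 and 2.14 in the knockdown and 2.54, 3.04 and 2.87 in NC, again without overlap. With 3 libraries against 3, an exact two-sided permutation test cannot go below p = 0.1, which both ratios reached (adjusted over the 4 ratios computed, p = 0.2). The ratio of CD14 over TLR4 overlapped between groups (exact p = 0.6). That of LY96 over TLR4 averaged 0.66 ± 0.240 in the knockdown and -0.32 ± 0.913 in NC (SD, n = 3 each) and its groups overlapped, with an exact permutation p of 0.2. Planned ratios of TLR7 over TLR8 and over TLR9 were not computed, because TLR8 was at 0 in 5 libraries and TLR9 had no row.

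**Figure D4:**
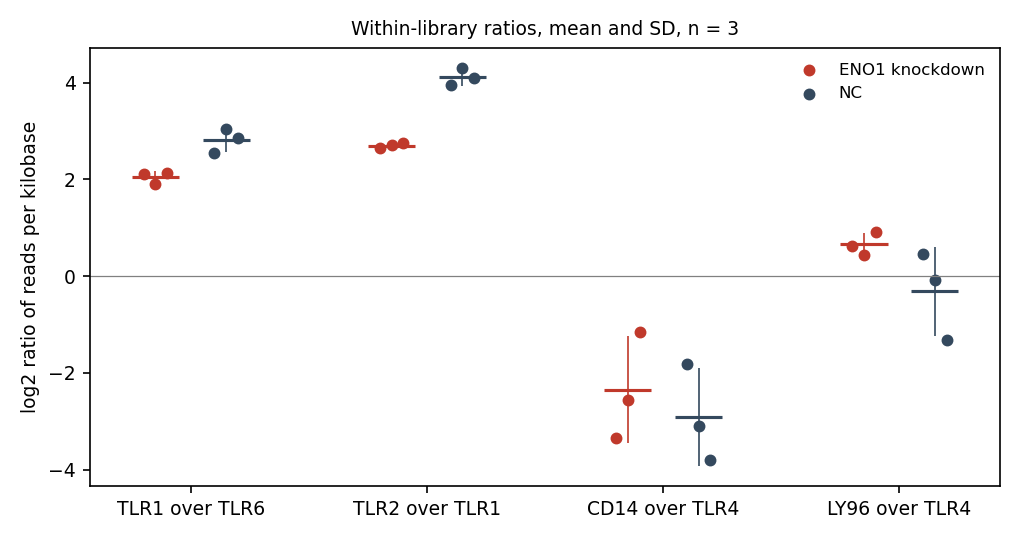
Log2 ratio of reads per kilobase for 4 gene pairs in each library (dots), with the mean (bar) and SD (line) of 3 libraries, ENO1 knockdown in red and NC in dark blue. TLR1 over TLR6 and TLR2 over TLR1 lie lower in the knockdown libraries without overlap, while CD14 over TLR4 and LY96 over TLR4 overlap.

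The wider pathway was described with 84 genes outside the members, of which 81 had a row and 72 were tested. Of these 72 genes 41 (56.9%) rose and 16 (22.2%) fell in the knockdown, against 29.4% and 30.5% of all genes. Their median log2 fold change was 0.23, against 0.00 over all genes tested. The genes were listed by role with earlier results of these data known. These counts, and those of each list below, are to be set beside the shares of all genes. They describe the lists and show nothing particular to them.

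Of 5 further adaptors 4 were tested, 1 higher and 2 lower. PIK3AP1 (BCAP), which links Toll-like receptors to phosphoinositide 3-kinase, fell to 217.7 ± 3.54 CPM in knockdown cells, against 324.9 ± 5.05 CPM in NC cells (SD, n = 3 each; edgeR adjusted p = 3.05e-15). SARM1, a TIR protein that degrades NAD, rose by 1.33 on the log2 scale (edgeR adjusted p = 0.000361), at 34, 37 and 43 counts in the knockdown and 19, 16 and 18 counts in NC libraries. TICAM1 (TRIF), the adaptor of TLR3 and of internalised TLR4, had a log2 fold change of -0.19 (edgeR adjusted p = 0.0214). Its groups overlapped, and the call was lost without knockdown replicate 3, NC replicate 1 or NC replicate 3, with adjusted p of 0.0947, 0.0907 and 0.0868. TIRAP, which bridges TLR2 and TLR4 to MYD88, was at 0.435 ± 0.216 CPM in knockdown cells and 0.427 ± 0.121 CPM in NC cells and had no call (edgeR adjusted p = 0.961). TICAM2 had no row and was not analysed here.

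Of the other receptors, CD180, a relative of TLR4 that acts with LY86, rose by 0.48 on the log2 scale, with 183.4 ± 7.53 CPM in knockdown cells and 131.2 ± 3.51 CPM in NC cells (SD, n = 3 each). Its partner LY86 was also tested, with a log2 fold change of -0.44 (edgeR adjusted p = 4.96e-07). LY86 was picked for naming with its value known. TLR3, which binds double-stranded RNA, had 1, 1 and 4 counts in the knockdown libraries and none in the NC libraries.

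Among 9 tested co-receptors, chaperones and trafficking factors 4 rose and 3 fell. The scavenger receptor CD36, which assists TLR2 and TLR6, had 113.2, 115.3 and 115.8 CPM in the knockdown libraries and 43.3, 42.4 and 42.8 CPM in the NC libraries, a log2 fold change of 1.42. TASL, the adaptor that couples endosomal receptors to IRF5, rose by 1.04. HSP90B1 (gp96), the chaperone that folds Toll-like receptors, and TMED7, which carries TLR4 to the surface, fell by 0.66 and 0.69 on the log2 scale. TMED7 is uncertain, since 22.8% of its 50-base stretches also occurred in the readthrough gene TMED7-TICAM2. LY96 had 20, 18 and 23 counts in the knockdown libraries and 34, 21 and 9 counts in the NC libraries and no call (edgeR adjusted p = 0.727). UNC93B1, which escorts endosomal receptors, was at 246.8 ± 20.2 CPM in knockdown cells and 245.7 ± 1.65 CPM in NC cells (edgeR adjusted p = 0.911). Without knockdown replicate 3 its adjusted p was 0.0314, at a log2 fold change of 0.07, and 11.8% of its stretches occurred in other gene models, UNC93B7 first among them.

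All 3 tested endosomal proteases rose, where 29.4% of all genes tested were called higher. CTSB and CTSS, encoding cathepsins B and S, had log2 fold changes of 0.58 and 0.37, and CTSK (cathepsin K) of 0.88. CTSL and LGMN did not pass the filter.

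Among 19 kinases and ubiquitin enzymes 8 rose, 6 fell and 5 had no call. TRAF6, the ubiquitin ligase that acts after the IRAK kinases, rose to 32.9 ± 1.06 CPM in knockdown cells, against 19.1 ± 0.662 CPM in NC cells (SD, n = 3 each; log2 fold change 0.78, edgeR adjusted p = 5.45e-11). UBE2N (Ubc13), the ubiquitin-conjugating enzyme that works with TRAF6, had a log2 fold change of -0.72 (edgeR adjusted p = 4.84e-15). IRAK4, the first kinase recruited by MYD88, rose by 0.21 and BTK by 0.29. The kinase IKBKE had a log2 fold change of -0.47.

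Of 12 inhibitors 7 rose and 2 fell. IRAK3 (IRAK-M), which blocks IRAK signalling in monocytes, fell to 114.0 ± 5.17 CPM in knockdown cells, against 166.3 ± 3.29 CPM in NC cells (SD, n = 3 each; edgeR adjusted p = 9.80e-13). TRAFD1 and the lipid phosphatase INPP5D rose by 0.54 and 0.30, and the deubiquitinase TNFAIP3 (A20) by 1.22.

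The 13 transcription factors included 9 that rose and 2 that fell. IRF7, which drives interferon genes after endosomal receptor signalling, had 72.0, 68.2 and 57.5 CPM in the knockdown libraries and 14.9, 15.6 and 17.4 CPM in the NC libraries, a log2 fold change of 2.05 (edgeR adjusted p = 3.67e-13). IRF1 and JUN rose by 0.58 and 0.91. IRF8, which directs monocyte and dendritic cell development, fell to 329.1 ± 0.907 CPM in knockdown cells, against 509.6 ± 4.20 CPM in NC cells (SD, n = 3 each).

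Of 17 inflammatory targets 11 were tested, with 8 (72.7%) higher and 1 (9.09%) lower, against 29.4% and 30.5% of all genes tested. The list median was 0.89 on the log2 scale, against 0.00 over all genes tested. This list too was made with earlier results known. CCL2, TNF, ICAM1 and SOD2 rose by 3.06, 0.89, 0.97 and 0.40. The gene that fell was NFKBIZ, at -0.63, which was picked for naming with its value known. Its call was lost without knockdown replicate 1 (edgeR adjusted p = 0.127) and without NC replicate 3 (0.0586).

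**Figure D5:**
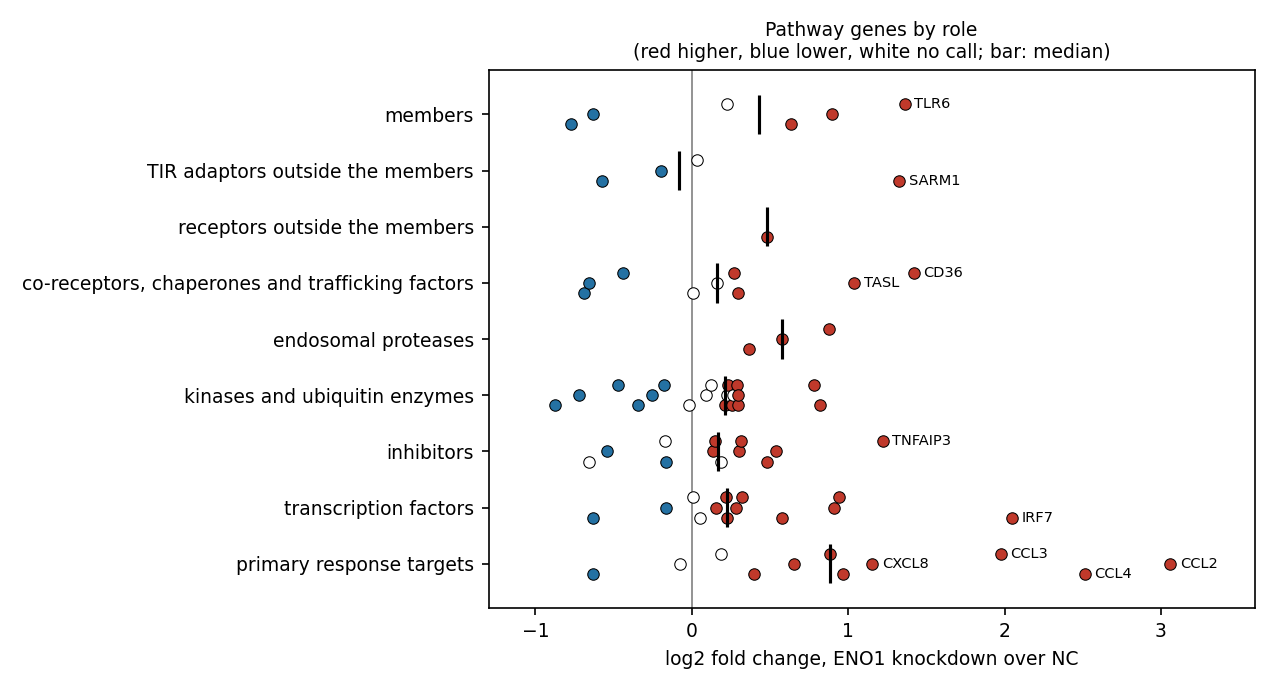
Log2 fold change of ENO1 knockdown over NC for the 6 tested members and the 72 tested pathway genes, grouped by role. Red points were called higher, blue points lower and white points had no call, the black bar is the median of a list, and genes past 1 are named, with CCL2 at 3.06 farthest to the right.

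Markers of other cell types were also read. Summed over its list, conventional dendritic cell markers stood at 161.8 to 171.6 CPM in knockdown libraries and 67.6 to 69.7 CPM in NC libraries. Nearly all of this came from CLEC10A, at 160.8 CPM in knockdown cells and 68.2 CPM in NC cells. CD1C and CLEC10A, known from the same subset of these cells, were higher. CLEC9A, known from another subset, had no count in the knockdown libraries and 0, 0 and 2 counts in the NC libraries. B cell markers stood at 6.31 to 7.16 CPM in knockdown and 3.94 to 5.04 CPM in NC libraries, with 2 of 5 higher and MS4A1 at 0 in 5 of the 6 libraries. Plasmacytoid dendritic cell markers stood at 91.7 to 97.1 CPM in knockdown and 54.9 to 57.6 CPM in NC libraries, with 2 of 5 higher, mostly through IL3RA, while CLEC4C had no row. Neutrophil markers stood at 6.83 to 8.36 CPM in knockdown and 5.24 to 5.54 CPM in NC libraries, with 1 of 3 higher. Of 5 T and NK cell markers 2 were tested, and of 4 erythroid and megakaryocyte markers 1 was tested, none with a call. No epithelial marker was tested, so none could be called. T and NK cell markers stood at 44.5 to 48.7 CPM in knockdown and 47.7 to 52.4 CPM in NC libraries. Nearly all of this came from NKG7 and NCAM1. The T cell genes CD3E and CD3G had at most 3 counts in a knockdown library and 0 in the NC libraries. Over all genes tested, 29.4% were called higher and 30.5% lower, so the marker calls are not read as particular to these lists. The part of these markers in the results was not tested.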

How the data were processed

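RNA was measured by sequencing in 6 libraries grouped by their titles. Per the labels' protocols, total RNA came from a Trizol extraction and went into an Illumina TruSeq RNA kit. HISAT2 2.0.5 and the build hg38 are named in the submitters' processing notes, and no source used here names the read counter, its annotation or its use of strand. The authors deposited whole-number read counts per Ensembl gene, not normalized, 1 column per library per the file headers.

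Symbols came from a table of gene IDs, positions, exon lengths and 50-base stretches from GENCODE release 29 (GRCh38) and promoters from RefSeq. Member and pathway genes sharing over 10% of stretches are uncertain, and those named in the results are given with that share. SOD2 was not checked for shared stretches, since its gene ID was not found in GENCODE release 29. REL (43.1%), UBE2V1 (38.1%), IKBKG (26.3%) and CCL4 (10.1%) are also uncertain and enter the counts of their lists. The test on counts was that of edgeR 4.0.16 under R 4.3.3 (TMM, default filterByExpr, robust glmQLFit and glmQLFTest, two-sided, Benjamini-Hochberg over 14635 genes, threshold 0.05). The filter removed 8592 genes. Standard errors are approximate, the log2 fold change over the square root of F. The script was tested on simulated data. Members, lists and tests were chosen with earlier results of these data known. The rule named all members, up to 4 genes per list by smallest adjusted p, 10 fixed pathway genes and ENO1. Alternatives were other scalings and filters, DESeq2 1.42.0, limma-voom (limma 3.58.1), a threshold of 0.01, the replicate number as a block and each library left out. A fit without both libraries that stood apart, one scaled without mitochondrially encoded genes and TLR1 with TLR6 as 1 gene were added after seeing the data.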

Additional observations from a re-analysis of the deposited data

How the results depend on the processing

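The 5 called members, TLR1, TLR2, TLR4, TLR6 and MYD88, kept direction and call in every alternative run, with log2 fold changes of 0.54 to 0.70, -0.83 to -0.72, -0.65 to -0.58, 1.19 to 1.59 and 0.85 to 0.95. The counts of pathway and of all genes stayed within 1.5 times. Library size alone gave 4900 genes higher and 3843 lower, against 4309 and 4458, and moved the median of all genes by 0.05. The replicate block gave 4165 higher and 4325 lower, so calls changed among all genes. It changed no call among the named genes that were followed singly through the alternatives. Replicate numbers were not taken as pairs, since the deviations of same-numbered libraries correlated at 0.003, 0.009 and -0.023. Signs turned only for values without a call. With 1 library left out TLR5 ran from -0.015 (without knockdown replicate 1) to 0.49, TIRAP from -0.46 (without knockdown replicate 2) to 0.27, LY96 from -0.19 (without NC replicate 3) to 0.63 and UNC93B1 from -0.043 (without knockdown replicate 1) to 0.067 (without knockdown replicate 3). UNC93B1 was also at -0.014 without knockdown replicate 2 and -0.017 with no filter. The difference in the log2 ratio of CD14 over TLR4 was 0.56, and it ran from -0.038 to 1.11 with 1 library left out, negative without knockdown replicate 3. TIRAP was also at -0.019 by limma-voom, -0.18 without NC replicate 2 and -0.045 without both libraries that stood apart. TICAM1 also lost its call with library size alone, upper-quartile scaling and DESeq2 (adjusted p = 0.0954, 0.0642 and 0.05), and NFKBIZ with DESeq2 (0.0521). The cause of these shifts was not tested. TLR5, TLR7, TLR8 and CD14 had few reads, and CD14 also varied within each group.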

Other observations

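CD1C, a lipid-presenting molecule of dendritic cells, had 98, 99 and 96 counts in the knockdown libraries, against 2, 11 and 9 counts in the NC libraries, a log2 fold change of 3.93 (edgeR adjusted p = 7.88e-12). The lectin CLEC10A, also known from dendritic cells, rose by 1.24 and was at 160.8 CPM in knockdown cells and 68.2 CPM in NC cells. Both were named after their values were seen. PTGS2, the inducible cyclooxygenase, did not pass the filter. It had 9, 27 and 22 counts in the knockdown libraries and 8, 3 and 2 counts in the NC libraries. PTGS2 was also named after its values were seen. CXCL2, another inflammatory target that did not pass the filter, went the other way. It had 0, 1 and 0 counts in the knockdown libraries and 5, 3 and 4 counts in the NC libraries. CXCL2 is uncertain, since 12.5% of its stretches also occurred in other genes, CXCL3 first among them. IL6 and PTX3, also not tested, overlapped between groups.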
